A study of Mus musculus with 12 samples.

Results

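The myomesins and the myosin-binding proteins C are the crosslinking proteins of the muscle thick filament, and the 7 mouse genes of both families (Myom1, Myom2, Myom3, Mybpc1, Mybpc2, Mybpc3 and Mybph) were taken from the whole array by gene symbol. The families were selected on earlier results of these same arrays, in which the lines had been set against wild type and against each other, so the fold changes and adjusted p-values below describe the members and are not independent evidence. Of the 7 genes, 6 were matched to a probe by symbol, and Mybph, the fast skeletal muscle relative of the myosin-binding proteins C, was not analysed here. The 6 genes had 12 probe identifiers, which made 7 features once identifiers with the same values on every array were merged, of 30854 features and 19013 genes on the whole array. Myom1, Myom2, Mybpc1, Mybpc2 and Mybpc3 each had 1 feature, and Myom3 had 2.

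RNA came from whole hearts of 12 female FVB/N mice, all 3 weeks of age. The mild line, MHC-CELF∆-574, and the severe line, MHC-CELF∆-10, were hemizygous for a transgene in which the mouse α-myosin heavy chain promoter drives a nuclear dominant negative CELF protein in postnatal heart muscle, with less of the protein in mild hearts and more in severe hearts. CELF proteins bind RNA and regulate alternative splicing, and the dominant negative form represses that activity. There were 3 hearts of the mild line (mild hearts below), 3 of the severe line (severe hearts) and 6 of wild type, made up of 3 littermates of the mild line and 3 littermates of the severe line. The promoter restricts the transgene to heart muscle cells, and each line has its own transgene insertion, so the amount of transgene protein and the insertion cannot be told apart. Each feature gives 1 hybridization signal per heart and does not resolve splice forms. Nothing in the labels says how the hearts were assigned to array slides.

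Before normalization the median feature had a raw intensity of 103 to 106 in mild hearts, 116 to 119 in severe hearts and 103 to 112 in wild type. By this median the 3 severe line arrays were brighter than the other 9. The highest raw intensity was not set apart, at 40049 to 46202 on the severe line arrays and 39798 to 48107 on the others. Levels below are normalized log2 intensities, and a level can be set against the same feature on another array but not against another feature. As an estimate of background, the 95th percentile of 1089 olfactory receptor features, genes that are mostly silent in the heart, was 6.32. All 5 cardiomyocyte markers measured lay above it (Myh6, Tnni3, Actc1, Pln and Mb), with a summed linear level of 67607 to 71629 in mild hearts, 63234 to 68389 in severe hearts and 62535 to 74275 in wild type. Of the 7 member features, 6 lay above the background estimate, and Mybpc1 lay below it in every group.

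Thick filaments are bundles of myosin held in register at the middle of the sarcomere, at the M band, by myomesins that bridge neighbouring filaments. Myomesin 1 (Myom1) is found in all striated muscle, M-protein (Myom2) marks adult heart and fast skeletal fibres, and myomesin 3 (Myom3) is known from slow and intermediate skeletal fibres. Myosin-binding proteins C sit in regular stripes on either side of the M band, where they bind myosin and tune its use by actin. The cardiac form is Mybpc3, the slow skeletal form is Mybpc1 and the fast skeletal form is Mybpc2, and mutations of MYBPC3 are a common cause of hypertrophic cardiomyopathy in people.

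Promoters are shown for the 3 genes whose levels the results turn on or compare, and for Myom1, because each holds a single site of a muscle gene regulator. They run 250 bases upstream to 50 bases downstream of the start in RefSeq, build GRCm38.p6, 5′ to 3′ on the strand of the gene. Of the 7 genes, 6 had an entry; Myom2 had none. Capitals mark an MCAT element (CATTCC on either strand), a CArG box or a MEF2 site, the binding sequences of TEAD factors, serum response factor and MEF2.
Mybpc2, chr7:44524620-44524919, minus strand: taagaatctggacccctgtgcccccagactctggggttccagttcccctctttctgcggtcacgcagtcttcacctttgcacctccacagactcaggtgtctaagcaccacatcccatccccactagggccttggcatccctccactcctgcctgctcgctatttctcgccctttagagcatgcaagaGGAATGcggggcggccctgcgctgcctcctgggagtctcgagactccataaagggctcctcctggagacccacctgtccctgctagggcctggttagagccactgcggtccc
Myom3, chr4:135759465-135759764, plus strand: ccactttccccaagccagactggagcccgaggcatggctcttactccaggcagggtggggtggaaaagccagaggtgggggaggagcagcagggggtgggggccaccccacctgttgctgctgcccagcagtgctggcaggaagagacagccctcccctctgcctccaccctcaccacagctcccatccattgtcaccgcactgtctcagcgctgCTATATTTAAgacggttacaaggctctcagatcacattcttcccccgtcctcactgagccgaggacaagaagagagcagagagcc
Mybpc3, chr2:91117894-91118193, plus strand: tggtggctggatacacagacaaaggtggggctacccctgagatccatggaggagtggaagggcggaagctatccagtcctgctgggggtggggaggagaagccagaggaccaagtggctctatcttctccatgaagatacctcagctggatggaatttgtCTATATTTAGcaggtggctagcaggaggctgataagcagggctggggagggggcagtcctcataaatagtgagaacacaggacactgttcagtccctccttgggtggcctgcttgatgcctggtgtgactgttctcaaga
Myom1, chr17:71019307-71019606, plus strand: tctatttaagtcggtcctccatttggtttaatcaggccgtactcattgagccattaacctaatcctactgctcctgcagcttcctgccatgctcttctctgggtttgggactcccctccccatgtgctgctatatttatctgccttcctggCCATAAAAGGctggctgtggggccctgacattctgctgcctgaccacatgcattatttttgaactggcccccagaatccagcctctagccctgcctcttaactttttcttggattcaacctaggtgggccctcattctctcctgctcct
Mybpc2 held 1 MCAT element, Myom3 and Mybpc3 held 1 MEF2 site each and Myom1 held 1 CArG box. Of the entries not shown, Mybph also held 1 MCAT element, and Mybpc1 held no MCAT element, MEF2 site or CArG box. Over all 32851 promoters of this length in the table, both strands searched, 14.7% held an MCAT element, 3.19% a MEF2 site and 1.63% a CArG box, and 72.3% held an E-box (CANNTG), which is left in lower case here. Each match is a description of letters in the window and was not tested as a site.

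Of the 7 member features, 3 passed the test in mild hearts against wild type, 2 higher and 1 lower, by limma with an adjusted p under 0.05 over all features. By the same call 1095 of 30854 features passed, 3.55%, of which 500 were higher and 595 lower. In the severe line against wild type none of the 7 passed by limma, where 3.30% of all features passed. Of the 7, 2 had an unadjusted p under 0.05, and the share of all features at that looser threshold was not counted. Between the mild line and the severe line 2 of the 7 passed, 1 higher and 1 lower, where 1.37% of all features did. The median log2 fold change over the 7 features was 0.0024 in mild hearts and -0.087 in severe hearts, against 2.5e-05 and -4.5e-04 over all features. By a rule of a 2-fold change and either that call or an unadjusted p under 0.001, 1 member passed in mild hearts, none in severe hearts and 1 between the lines, where 83 (0.269%), 42 (0.136%) and 42 (0.136%) of all features did.

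**Figure D1:**
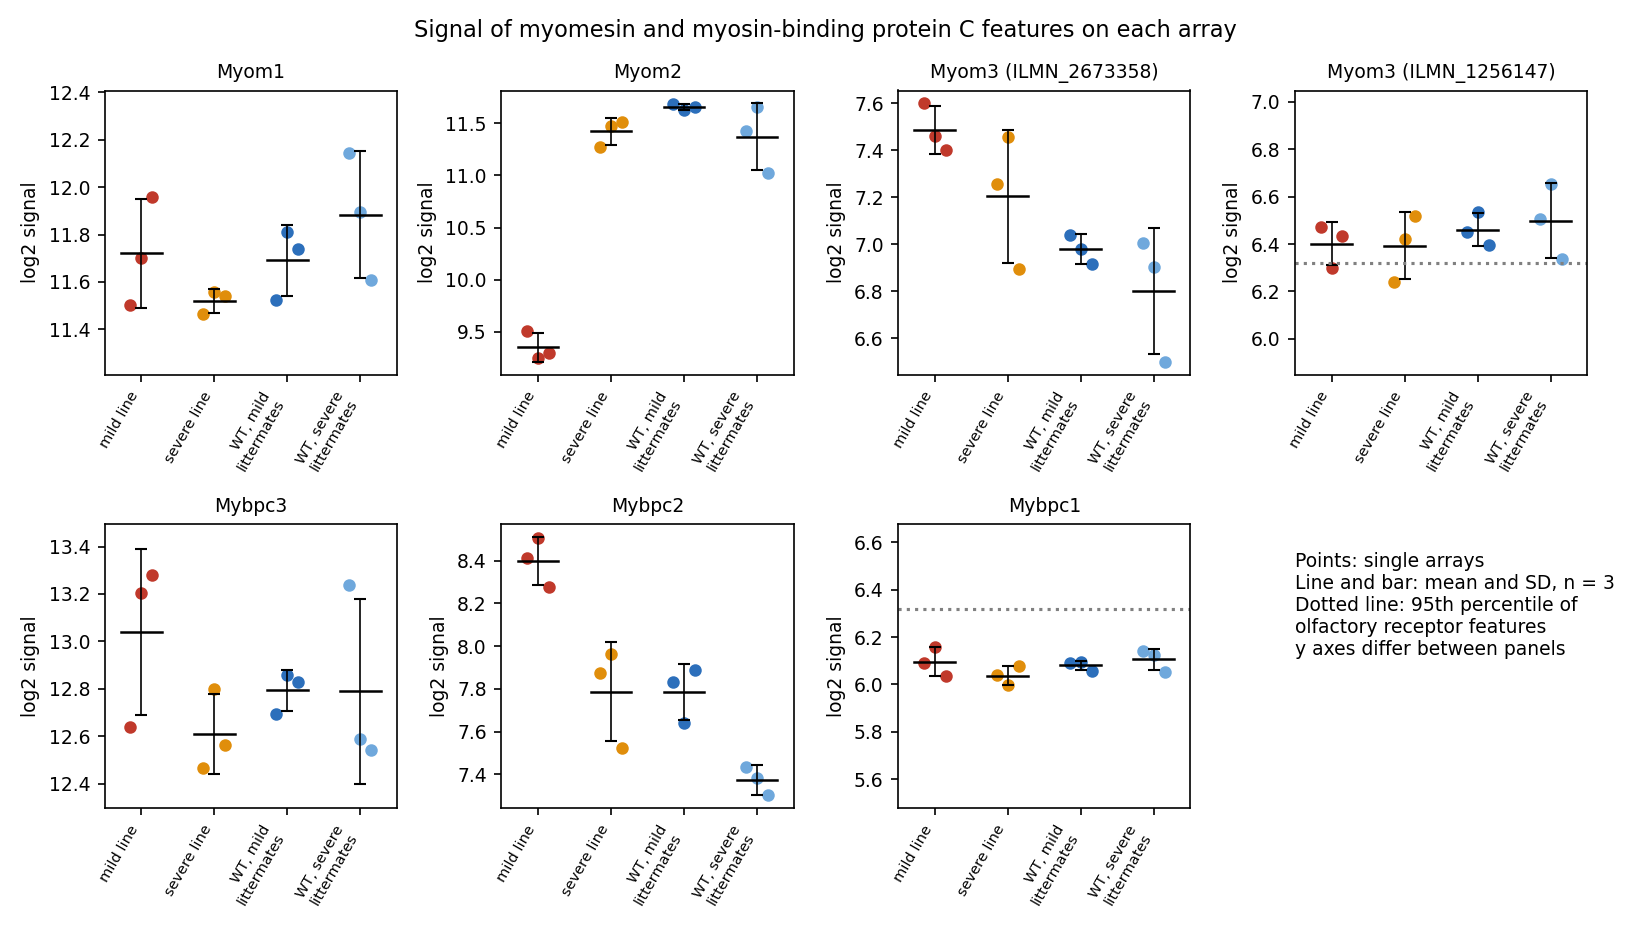
Normalized log2 intensity (vertical axis, a scale of its own in each panel) of the 7 member features on each of the 12 arrays, with mild hearts at the left, then severe hearts, then the littermates of the 2 lines; points are arrays and lines are group means. The 3 mild line points of Myom2 sit between 9.25 and 9.51, and all others sit at 11.02 or above.

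Myom2, which encodes M-protein, had the largest change among the members. Its log2 level was 9.51, 9.25 and 9.29 in mild hearts and 11.28, 11.48 and 11.51 in severe hearts. In wild type it was 11.69, 11.63 and 11.66 in littermates of the mild line and 11.43, 11.66 and 11.02 in littermates of the severe line. The 3 mild line hearts lay below the other 9, with no overlap, and the severe line lay within the range of wild type. The raw intensities, before background correction, were 746, 622 and 628 in mild hearts and 2294, 2663 and 2920 in severe hearts, against 1974 to 3804 in wild type, so the gap was in the scanner values as well.

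Group means of Myom2 were 9.35 ± 0.14 in mild hearts and 11.42 ± 0.13 in severe hearts (SD, n = 3 each), and 11.51 ± 0.26 in wild type (SD, n = 6). Against wild type, the mild line was lower by 4.48-fold, a log2 fold change of -2.17 (SE 0.12, 95% interval -2.42 to -1.91, limma adjusted p = 1.5e-09), the 4th lowest of all 30854 features. In the severe line the log2 fold change was -0.091 (95% interval -0.34 to 0.16, limma adjusted p = 0.833). The mild line was 4.21-fold lower than the severe line, a log2 difference of -2.07 (95% interval -2.37 to -1.78, limma adjusted p = 4.8e-08). The gene was thus lower in the line with less of the dominant negative protein and not in the line with more of it. Against its own littermates alone the mild line had a log2 fold change of -2.31 (limma adjusted p = 2.3e-09) and the severe line of 0.05 (adjusted p = 0.927). In RNA of a whole heart, fewer cells of a type and less RNA per cell cannot be told apart, here and in each result below.

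Several markers of atrial cardiomyocytes were also lower in mild hearts. Over all features 3.55% passed in mild hearts and 3.30% in severe hearts, the shares to set beside this list and each list below. All 7 listed markers were measured: 4 fell in mild hearts, none rose, and none passed in severe hearts, with a median log2 fold change of -0.71 in mild hearts and -0.06 in severe hearts. The 4 were Mybphl, a myosin-binding protein H relative known from atria, Myl7 and Myl4, the atrial regulatory and essential light chains, and sarcolipin (Sln), an inhibitor of the calcium pump. Mybphl had a log2 level of 9.49, 8.96 and 9.05 in mild hearts, against 11.92, 12.28 and 12.11 in severe hearts and 11.99 to 12.37 in wild type. Its log2 fold change was -3.09 in mild hearts (limma adjusted p = 1.8e-12) and -0.15 in severe hearts (adjusted p = 0.628), so it followed the same order of groups as Myom2.

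The log2 fold changes in mild hearts were -1.84 for Myl7 (limma adjusted p = 2.2e-07), -1.84 for Sln (7.6e-08) and -0.71 for Myl4 (3.3e-05). Nppa, the atrial natriuretic peptide, had 0.05 (adjusted p = 0.822), Tbx5, a transcription factor of the heart, lay below the background estimate in every group, and Bmp10, a growth factor of the atria, lay below it in mild hearts and little above it in wild type (mean 6.46), so nothing is read from either. Nppa lay at 15.14 to 15.28 on the 12 arrays, close to the highest feature mean on the array, 15.38, where a change can be compressed. The summed linear level of the 7 markers was 55789 to 61873 in mild hearts, 73639 to 76852 in severe hearts and 74119 to 82196 in wild type, with no overlap between the mild line and the other hearts. The part of atrial tissue in the change of Myom2 was not tested.

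**Figure D2:**
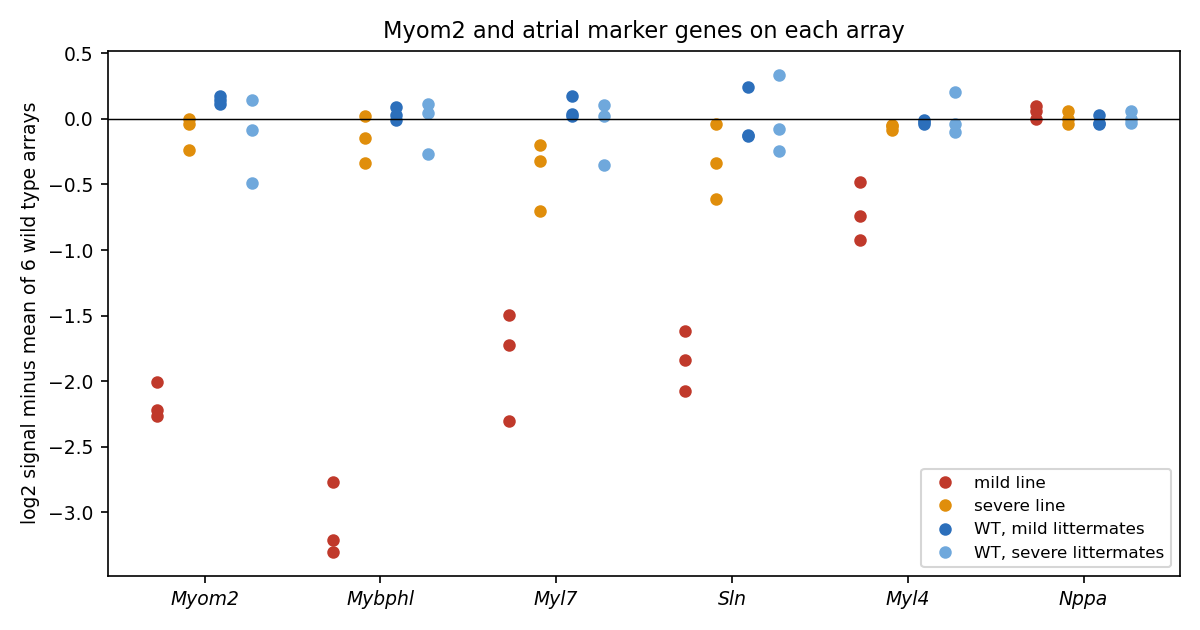
Log2 level of Myom2 and of 5 atrial cardiomyocyte markers on each of the 12 arrays (points) relative to the wild type mean of the same gene (vertical axis, log2 units). The mild line points of Myom2, Mybphl, Myl7, Sln and Myl4 lie below all others, and those of Nppa lie among them or above.

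Mybpc2, the fast skeletal myosin-binding protein C, was the member that rose most. Its log2 level was 8.41, 8.50 and 8.28 in mild hearts and 7.87, 7.96 and 7.52 in severe hearts. In wild type it was 7.83, 7.64 and 7.89 in littermates of the mild line and 7.44, 7.38 and 7.30 in littermates of the severe line. All 3 mild line hearts lay above the other 9, and the severe line overlapped the littermates of the mild line but lay above its own littermates. Group means were 8.40 ± 0.11 in mild hearts, 7.79 ± 0.23 in severe hearts (SD, n = 3 each) and 7.58 ± 0.25 in wild type (SD, n = 6).

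Against all 6 wild type hearts, Mybpc2 was 1.76-fold higher in mild hearts, a log2 fold change of 0.82 (SE 0.12, 95% interval 0.56 to 1.08, limma adjusted p = 3.8e-04), and in severe hearts it was 0.21 (95% interval -0.05 to 0.47, adjusted p = 0.523). The littermates themselves differed: those of the mild line averaged 7.79 and those of the severe line 7.37, a log2 difference of 0.41 (95% interval 0.19 to 0.64, unadjusted p = 0.0011 and adjusted p = 0.155 by limma), with all 3 of the mild line's littermates above all 3 of the severe line's. Set against its own littermates, each line was higher, the mild line by 0.61 (limma adjusted p = 0.00229) and the severe line by 0.41 (adjusted p = 0.0486), in fits in which 2.34% and 2.32% of all features passed. The 2 increases measured this way differed by 0.20 (95% interval -0.12 to 0.51, adjusted p = 0.852, 0.266% of all features passing), whereas the lines compared directly differed by 0.61 (95% interval 0.31 to 0.91, adjusted p = 0.0399), 1.53-fold. The direct difference is the sum of this 0.20 and the 0.41 between the littermates, and its call was lost in 10 of 21 alternatives.

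Skeletal muscle markers were mixed in these hearts. Of 12 measured, 6 lay above the background estimate by their mean over all arrays: Myh8, Tnni2, Mylpf, Pvalb, Atp2a1 and Myog. Their wild type means were 8.24 for Tnni2, 7.83 for Myh8 and 6.37 to 6.76 for the others. Myh1, Myh4, Actn3, Tnnt3, Tnnc2 and Myod1 lay below the estimate by the same mean. Tnnt3 averaged 6.38 in mild hearts, little above it, and did not pass there (limma adjusted p = 0.068). In the mild line 1 rose, the calcium buffer parvalbumin (Pvalb, log2 fold change 0.65), and 2 fell, Tnni2 (-0.59), the fast fibre troponin I, and Atp2a1 (-0.35), the fast fibre calcium pump. Pvalb in wild type (mean 6.42) and Atp2a1 in mild hearts (mean 6.41) lay little above the background estimate, so the sizes of these changes are uncertain. In the severe line only Tnni2 passed (-0.53). Against own littermates the calls for Tnni2 (-0.42, limma adjusted p = 0.161) and Atp2a1 (-0.39, adjusted p = 0.0677) were lost in mild hearts. The summed linear level of the list was 1245 to 1329 in mild hearts, 1202 to 1249 in severe hearts and 1262 to 1396 in wild type. The part of skeletal muscle RNA in the values of Mybpc2 and Myom3 was not tested.

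Myom3 was represented by 2 features, ILMN_2673358 and ILMN_1256147, that did not behave alike. On ILMN_2673358 the log2 level was 7.60, 7.46 and 7.40 in mild hearts and 7.26, 7.46 and 6.90 in severe hearts, against 7.04, 6.98 and 6.92 in littermates of the mild line and 7.01, 6.90 and 6.50 in littermates of the severe line. The 3 mild line hearts lay above all 6 wild type hearts, and the severe line overlapped both. The mild line was 1.51-fold higher than wild type, a log2 fold change of 0.60 (95% interval 0.35 to 0.84, limma adjusted p = 0.00487), and the severe line had 0.31 (95% interval 0.07 to 0.56, unadjusted p = 0.016, adjusted p = 0.204). Against its own littermates alone the increase in mild hearts missed the threshold, at 0.51 (limma adjusted p = 0.0515). The wild type value of 6.50 stood apart, and without that heart the log2 fold change was 0.52 in mild hearts (limma adjusted p = 0.00479) and 0.23 in severe hearts (adjusted p = 0.28). The difference between the lines was 0.28 (95% interval -0.0013 to 0.57, adjusted p = 0.406).

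The other Myom3 feature, ILMN_1256147, averaged 6.40 ± 0.09 in mild hearts, 6.39 ± 0.14 in severe hearts (SD, n = 3 each) and 6.48 ± 0.11 in wild type (SD, n = 6), just above the background estimate of 6.32. Its log2 fold change was -0.08 in mild hearts (95% interval -0.25 to 0.09, limma adjusted p = 0.805) and -0.09 in severe hearts (adjusted p = 0.728). The increase of Myom3 therefore rests on 1 of its 2 features. The intervals of the 2 features in mild hearts did not overlap.

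Myom1 encodes myomesin 1, the myomesin common to all striated muscle, and it did not pass in either line. Its log2 level was 11.50, 11.70 and 11.96 in mild hearts and 11.46, 11.56 and 11.54 in severe hearts, against 11.52, 11.81 and 11.74 in littermates of the mild line and 12.15, 11.90 and 11.61 in littermates of the severe line. Mild hearts overlapped wild type, and severe hearts lay below all 3 of their own littermates but overlapped the littermates of the mild line. The log2 fold change was -0.07 in mild hearts (95% interval -0.31 to 0.17, limma adjusted p = 0.896) and -0.27 in severe hearts (95% interval -0.51 to -0.03, unadjusted p = 0.0309, adjusted p = 0.289). Against own littermates alone the severe line had -0.36 (95% interval -0.63 to -0.10, limma adjusted p = 0.188). These intervals bound any change of Myom1 in mild hearts to well under that of Myom2.

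Mybpc3, the cardiac myosin-binding protein C, did not pass in either line. Its log2 level was 12.64, 13.20 and 13.28 in mild hearts and 12.47, 12.80 and 12.56 in severe hearts, against 12.69, 12.86 and 12.83 in littermates of the mild line and 13.24, 12.59 and 12.54 in littermates of the severe line. The groups overlapped, with mild line replicate 1 below the other 2 mild hearts and severe line littermate replicate 1 above the other 2 of its set. The log2 fold change was 0.25 in mild hearts (95% interval -0.05 to 0.55, limma adjusted p = 0.542) and -0.18 in severe hearts (95% interval -0.48 to 0.12, adjusted p = 0.664). Leaving out single arrays moved the value to between 0.13 (without mild line replicate 3) and 0.45 (without mild line replicate 1) in mild hearts. In severe hearts it moved to between -0.28 (without severe line replicate 2) and -0.09 (without severe line littermate replicate 1), and it was -0.11 without severe line replicate 1. Between the lines it was 0.43 (95% interval 0.08 to 0.78, adjusted p = 0.263).

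Mybpc1, the slow skeletal myosin-binding protein C, was near background on every array, at 6.09, 6.16 and 6.04 in mild hearts and 6.04, 6.00 and 6.08 in severe hearts, against 6.05 to 6.14 in wild type. Nothing can be read of its level from these arrays, and its log2 fold changes of 0.0024 in mild hearts and -0.06 in severe hearts (limma adjusted p = 0.993 and 0.778) describe a feature at the level of silent genes.

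**Figure D3:**
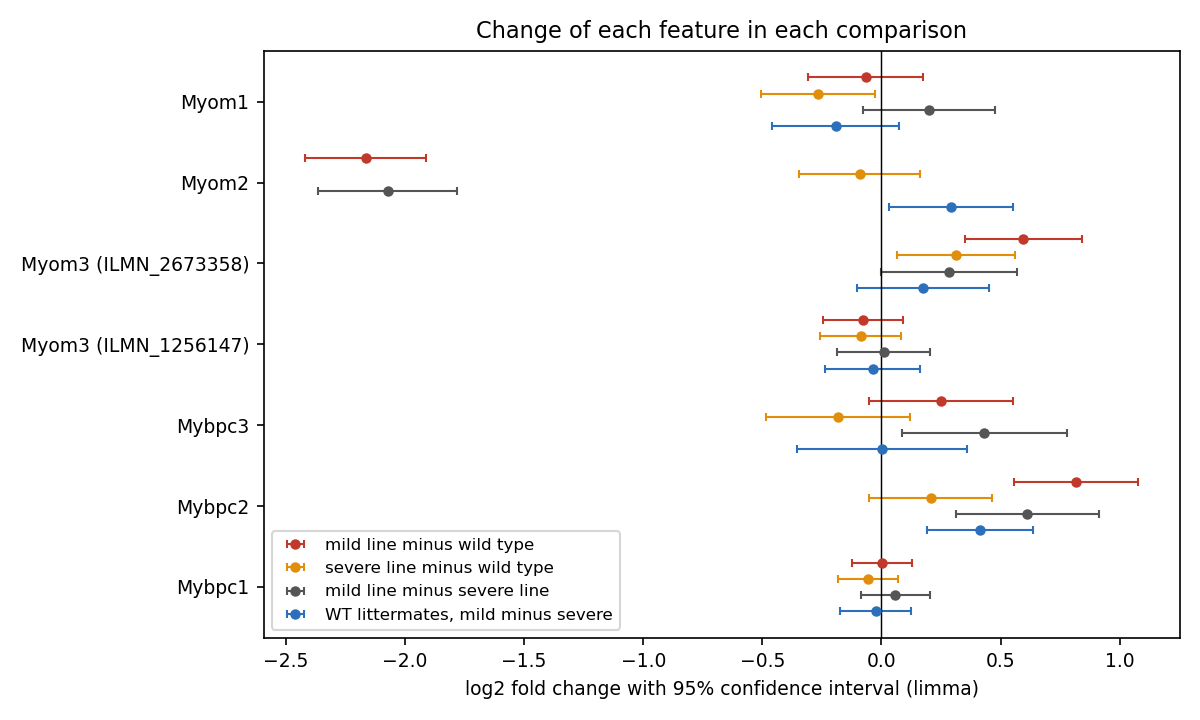
Log2 fold change of each member feature (horizontal axis) with its 95% interval (bars) in the 4 comparisons: mild line against wild type, severe line against wild type, mild line against severe line, and littermates of the mild line against littermates of the severe line. All points are filled, and the fill does not mark which passed an adjusted p under 0.05. Myom2 is at -2.17 and -2.07 in the comparisons of the mild line, and near 0 in severe hearts.

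Among wild type hearts, none of the 7 member features passed by limma between littermates of the mild line and littermates of the severe line, and 2 had an unadjusted p under 0.05, Mybpc2 as given above and Myom2. At an adjusted p under 0.05, 27 of all 30854 features passed, 0.0875%. The share of all features with an unadjusted p under 0.05 was not counted, so no excess is read from the 2. Myom2 averaged 11.66 in littermates of the mild line and 11.37 in littermates of the severe line, a log2 difference of 0.29 (95% interval 0.03 to 0.55, unadjusted p = 0.031, adjusted p = 0.442). Replicate 3 of the severe line littermates, at 11.02, was the lowest of the 6, and without it the difference was 0.12 (adjusted p = 0.787).

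Of 8 other thick filament proteins measured, 3 fell in mild hearts and none rose, and 1 rose and none fell in severe hearts, with median log2 fold changes of -0.08 and -0.06. The 3 were Mybphl, Myl7 and Myl4, which are atrial markers too, so this count repeats the one above. In the severe line Myh7, the β-myosin heavy chain of the fetal and stressed rodent ventricle, was 0.59 higher on the log2 scale (limma adjusted p = 8.4e-04). Its wild type mean of 6.51 lay little above the background estimate of 6.32, so the size of this change is uncertain. The main heavy chain, Myh6, had -0.11 in mild hearts and -0.09 in severe hearts, and titin (Ttn), the spring that runs along the thick filament, had 0.09 and -0.06. None of these passed.

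Of 11 proteins of the M band or that bind there, 2 rose and 3 fell in mild hearts, and 1 rose and 2 fell in severe hearts, with medians of -0.02 and -0.10. Of all features, 3.55% passed in mild hearts and 3.30% in severe hearts. Fhl2, a LIM protein that tethers metabolic enzymes at the M band, fell in both lines, with a log2 fold change of -1.67 in mild hearts (limma adjusted p = 3.1e-11) and of -0.70 in severe hearts (8.9e-06). Its level was 11.74 to 11.97 in mild hearts, 12.74 to 12.89 in severe hearts and 13.43 to 13.65 in wild type, so the 3 groups did not overlap. Ank1, an ankyrin with a small muscle form, rose in both, by 0.65 in mild hearts (adjusted p = 1.2e-04) and 0.53 in severe hearts (0.00139). The muscle RING finger ubiquitin ligases went in opposite directions in mild hearts: Trim54 had 0.72 (adjusted p = 0.00496) and Trim63 had -0.62 (8.5e-04). In the severe line neither passed, at -0.14 and -0.20. The Trim54 level was 0.51 higher in littermates of the mild line than in those of the severe line (adjusted p = 0.101), and against own littermates it had 0.46 in mild hearts (adjusted p = 0.0349) and 0.12 in severe hearts (0.762), the sign in severe hearts being turned. Cmya5, or myospryn, had -0.39 in mild hearts (adjusted p = 0.0351) and -0.48 in severe hearts (0.009), and in mild hearts the call was lost against own littermates (-0.27, adjusted p = 0.284).

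The list for thick filament assembly held 6 genes, some of them general chaperones, and in each line 1 rose and none fell. Unc45b, Smyd1, Smyd2, Hsp90aa1 and Nexn passed in neither line, so the rise is not read as one of assembly factors. The gene that rose was Hspb1, a small heat shock protein. Hspb1 was 0.79 higher in mild hearts (limma adjusted p = 8.9e-04) and 0.68 higher in severe hearts (0.00453). Its level was 0.50 higher in littermates of the mild line than in those of the severe line (adjusted p = 0.0565), and against own littermates the rises were 0.54 in mild hearts (0.00246) and 0.93 in severe hearts (1.7e-05), so the order of the lines turned. Of 7 kinases of myosin-binding protein C or of myosin light chain, 2 rose and 1 fell in mild hearts, and 1 rose and 1 fell in severe hearts. Mylk3, the cardiac myosin light chain kinase, fell by 0.80 in mild hearts (adjusted p = 9.7e-05) and by 0.47 in severe hearts (0.0171), where the call was lost against own littermates (-0.39, adjusted p = 0.121). Mylk2, the skeletal muscle kinase, passed as higher in both lines, at means of 6.70 in mild hearts and 6.71 in severe hearts, but its wild type mean of 6.14 lay below the background estimate, so no size of the change is given. Prkaca, the catalytic subunit of protein kinase A, which phosphorylates cardiac myosin-binding protein C, was 0.26 higher in mild hearts (adjusted p = 0.0249) and -0.10 in severe hearts (adjusted p = 0.554).

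**Figure D4:**
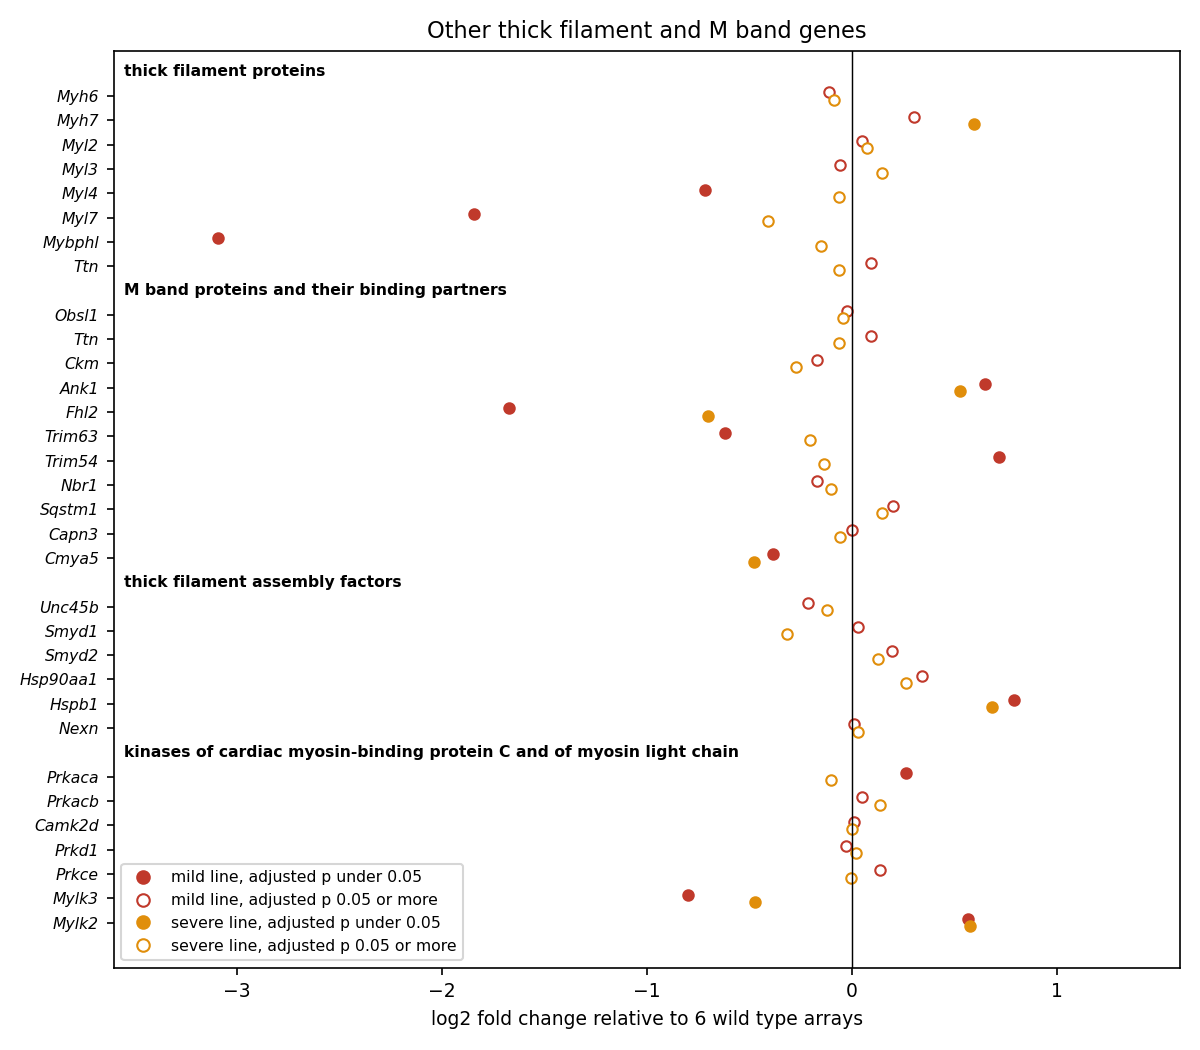
Log2 fold change (horizontal axis) in mild hearts and in severe hearts against wild type for the thick filament proteins, M band proteins, genes of the assembly list and kinases measured. Filled points passed an adjusted p under 0.05. Mybphl, Myl7 and Fhl2 lie farthest to the left in mild hearts.

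The search for like patterns covered 12459 features that were brighter than the array median and had 1 gene symbol, without those of Myom2 itself. The genes whose pattern over the 12 arrays was most like Myom2, by Pearson correlation of log2 values, were Mybphl (0.991), Hopx (0.978), Crip2 (0.973), Pum3 (0.966) and Dkk3 (0.966). Hopx is a homeodomain protein of the developing heart and Dkk3 is a secreted protein of the Dickkopf family. All 5 were lower in mild hearts, with log2 fold changes of -3.09 for Mybphl, -3.10 for Hopx, -1.68 for Crip2 and -1.08 for Dkk3, and Pum3 likewise below wild type. The 12 arrays fall into the mild line and the rest on these genes, so the pooled correlation mostly describes that gap. Over the 9 arrays without the mild line the correlations were 0.789, 0.383, 0.413, 0.210 and 0.689, and over the 6 wild type arrays 0.880, 0.475, 0.678, 0.329 and 0.732, in the same order. Mybphl had the highest Pearson value of the 5 in each of these sets of arrays, but by rank over the 9 arrays (Spearman) it had 0.533, below Crip2 (0.760), Dkk3 (0.750) and Hopx (0.550).

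For Mybpc3 the most like patterns were those of Ensa (0.900), Lsmem1 (0.873), Ehbp1 (0.870), Zfp335 (0.868) and Cops7b (0.859) over the 12 arrays, and 0.820, 0.742, 0.926, 0.919 and 0.813 over the 9 arrays without the mild line. Ensa encodes a protein phosphatase regulator. No correlation here was tested, and the transgenic arrays of 1 line share their transgene.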

How the data were processed

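Total RNA of 12 whole hearts was hybridised to Illumina mouse whole-genome arrays, 1 heart to an array. Per the submitters' processing notes the authors read the arrays with GenomeStudio (version not given), and the deposited scanner tables hold a summarized intensity for each probe, not normalized and without detection p-values. The authors also deposited log2 values, background corrected and quantile normalized, which were used as an alternative only.

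The deposited intensity values were corrected with normexp (offset 50), used because neqc needs detection p-values, then quantile normalized and taken as log2. Probe identifiers with the same values on all 12 arrays were merged (45281 identifiers, 30854 features), and 6 lines without an identifier were dropped. Gene symbols came from the platform annotation (22203 features had 1 symbol). Groups were fitted across all features with limma 3.58.1 in R 4.3.3 (lmFit, eBayes), with the 6 wild type hearts pooled and Benjamini-Hochberg adjustment within each comparison; an adjusted p under 0.05 was the call. The scripts were tested on simulated data.

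The members and all lists were chosen with earlier results of these data known. Values on every array are given for members past the call and for the brightest feature of each other member; of the lists (thick filament, M band, assembly factors, kinases, and markers of cardiomyocytes, atrial and ventricular cardiomyocytes, skeletal muscle, fibroblasts, smooth muscle and endothelium), up to 4 genes past the call with the largest change are named, and for a few others values are given because they define the list. A gene of several features is represented in a list by its brightest. Nothing says that hearts came from separate litters, so p-values measure the spread between these samples. The number of arrays limits the precision. Of the marker lists not described with a result, ventricular markers gave 1 of 5 called (Myh7, higher in the severe line), fibroblasts 1 of 6 and smooth muscle 2 of 4, all higher in the severe line, smooth muscle 1 lower in the mild line, and endothelium none of 4; cardiomyocyte markers gave 1 of 5 lower in each line (Pln).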

Additional observations from a re-analysis of the deposited data

Results flagged for a closer look

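On the 6 wild type arrays, the lowest value of Myom3 feature ILMN_2673358, 6.50 in replicate 3 of the severe line littermates, lay apart from the others: its gap to the nearest made up 0.743 of the whole range of the group. It was 1 of 7 member features checked, and the threshold it passed, Dixon's 95% critical value, is passed by chance in about 1 in 20 groups. Without that array the log2 fold change of this feature was 0.52 in the mild line (limma adjusted p = 0.00479) and 0.23 in the severe line (adjusted p = 0.28).

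For 2 members the change in the mild line differed from that in the severe line by a test of the difference itself. For Myom2 the log2 difference was -2.07 (limma adjusted p = 4.8e-08), with all 3 mild line hearts below all 3 severe line hearts. For Mybpc2 it was 0.61 (adjusted p = 0.0399), with all 3 mild line hearts above all 3 severe line hearts. With each line set against its own littermates, the difference was -2.36 for Myom2 (adjusted p = 6.3e-07) and 0.20 for Mybpc2 (adjusted p = 0.852).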

How the results depend on the processing

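Against wild type, 22 alternatives were run, 12 of which left out 1 array. Of 591 recomputed member values, 577 kept their direction and side of the threshold, 11 lost a call, 3 gained one and none of the called values reversed; 18 values without a call changed sign. The littermate difference of Myom2 (0.29) was 0.12 to 0.43 with single arrays left out. The fall of Myom2 in the mild line lay between -2.31 and -2.06 and held its call throughout, as did its difference from the severe line (-2.36 to -1.97). The rise of Mybpc2 in the mild line (0.61 to 0.95) also held. That of Myom3 ILMN_2673358 (0.49 to 0.79) was lost against own littermates (adjusted p = 0.0515). In the mild line, 1 of the 3 members called, Myom2, passed the study's 2-fold rule, as did 83 of all features. In the severe line, where 0 members were called, 1 was called against its own littermates (Mybpc2, 0.41, adjusted p = 0.0486) and 1 against its own littermates with the replicate block (Myom3, 0.40, adjusted p = 0.0304); leaving out single arrays gave 0 to 1, with Myom3 at 0.47 (adjusted p = 0.0499) without severe line replicate 3. Between the lines, 1 of 2 was called, Mybpc2 being lost, with a background offset of 16 (adjusted p = 0.138), with median scaling (0.051), against own littermates (0.852), with the replicate block (0.0618) and at 2-fold; leaving out single arrays gave 1 to 2. Mybpc2 was lost there without severe line replicate 1 (0.0911) or 3 (0.156), mild line replicate 1 (0.114), 2 (0.149) or 3 (0.0782), or mild line littermate replicate 2 (0.0526). The cause was not tested. For the list genes, fits against own littermates were added after seeing the data. The replicate numbers gave no sign of pairing: deviations of same-numbered arrays from their group means correlated between -0.36 and 0.10, and 1 of 6 transgenic arrays correlated best with its own number. With so few arrays in each group, this check cannot exclude a pairing. With the replicate block, Mybpc2 in the mild line had 0.82 (adjusted p = 9.5e-04) and Myom3 0.60 (0.00112). Without features dimmer than the median, Mybpc1 gave no value. No scaling moved the median of all features by more than 0.024. Dim features, Mybpc1 and Myom3 ILMN_1256147, limit what can be seen.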
